A study of Mus musculus with 11 samples.

Results

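The genes described here are 9 markers of osteoblasts and osteocytes, the cells that make bone matrix and the cells that become embedded in it: Dmp1, Mepe, Phex, Fgf23, Bglap, Bglap2, Ifitm5, Dlx5 and Ptprv. They were chosen with earlier results of these data known, so their shares beside those of all genes below are descriptive only. They were taken by name from a count table of 23420 gene symbols, and all 9 were found there. Of these, 8 passed the filter on low counts and were tested among 14531 genes. Fgf23 did not pass it and is given by its counts. RNA sequencing had been run on all cells of the fibrocartilage that covers the condyle of the lower jaw, the growing surface of the jaw joint, in female C57BL/6 mice. Every mouse in the study, in each of the 4 groups, had its ovaries removed at 6 weeks of age, carried a pellet for 1 week and gave tissue at 7 weeks. The groups were estrogen receptor alpha knockout (ERalphaKO, written KO) with 17β-estradiol (E2; 3 libraries), KO with placebo (Plb; 3 libraries), wild type (WT) with estradiol (3 libraries) and WT with placebo (2 libraries). The estradiol pellet held 0.01 mg and was made to release over 60 days. The sources used here do not say how the knockout allele was made or in which cells it acts. The labels number the libraries without stating that each is a different animal, and p-values therefore speak only of variation from library to library, some of which may be technical.

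Osteoblasts secrete a matrix rich in type I collagen and then mineralize it, and those that are buried in it turn into osteocytes. Osteocytes make DMP1, MEPE, PHEX and the hormone FGF23, which act on mineral deposition and on the handling of phosphate by the kidney, while mature osteoblasts make osteocalcin and the membrane protein IFITM5. Estradiol acts on bone largely through estrogen receptor alpha, and loss of estrogen raises the turnover of bone. In bulk RNA a lower level can come from fewer cells of a type or from less RNA per cell, and the measurements below cannot tell these apart.

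Libraries held 15.7 to 25.5 M counts, at which 3 counts, taken as the floor, equal 0.118 to 0.204 CPM (counts per M of the TMM-scaled library total). Floors and intervals from counts cover counting error only. Esr1, the gene of estrogen receptor alpha, had 2.55 to 4.86 CPM in KO libraries (43 to 115 counts) and 6.43 to 13.4 CPM in WT libraries (97 to 249 counts), without overlap in CPM, and its log2 difference was -1.11 under estradiol (edgeR adjusted p = 0.0257) and -1.39 under placebo (adjusted p = 0.468). The 8 fixed osteoblast and osteocyte markers, among them Runx2, Sp7, Col1a1, Alpl and Sost, were all detected. Of these, 2 belong to the set itself and 6 to the list of other bone genes read below. Their detection therefore does not test the label of the set. Library WT placebo 2 stood apart, with 16.0% of its counts on the ribosomal precursor Rn45s against 1.83% to 3.13% in the other libraries, and the WT estradiol changes of the 8 genes are also given without it. Markers of other cells differed between groups: 12 neutrophil markers summed to 1292 to 4682 CPM in KO estradiol, 1.48 to 753 in KO placebo, 8.49 to 44.4 in WT estradiol and 217 to 485 in WT placebo. The 12 skeletal muscle markers summed to 10.7 to 15.1 CPM in KO estradiol, 74.8 to 663 in KO placebo, 32.5 to 242 in WT estradiol and 36.8 to 1016 in WT placebo. The 10 osteoclast markers summed to 8273 to 9828 CPM in KO estradiol, 8897 to 10125 in KO placebo, 12746 to 13175 in WT estradiol and 9139 to 10954 in WT placebo. The 5 hypertrophic chondrocyte markers summed to 3855 to 5345 CPM in KO estradiol and 4082 to 4727 in KO placebo. Their WT sums were 5717 to 6834 CPM with estradiol and 5714 to 7382 with placebo. The 7 chondrocyte markers summed to 7960 to 16831 CPM in KO estradiol and 8365 to 11533 in KO placebo. Those WT sums were 12991 to 22845 CPM with estradiol and 12179 to 21320 with placebo. The part of these cells in the results below was not tested.

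Set side by side per kb of exon, the osteocalcin genes stood highest. Over the 11 libraries Bglap averaged 2434 ± 470 CPM per kb (SD), Bglap2 870 ± 141 and Dmp1 340 ± 104. Ifitm5 followed at 92.2 ± 16.5 CPM per kb and Mepe at 77.6 ± 21.0, then Dlx5 at 47.0 ± 9.19 and Phex at 45.4 ± 6.16, and Ptprv stood at 16.3 ± 4.12. Each of these was above the next in all 11 libraries, except that Ifitm5 was above Mepe in 8 of 11 and Dlx5 above Phex in 5 of 11, so neither of those neighbours was separated beyond its spread. Per kb levels rest on exon lengths of a later annotation than the one the reads were counted with.

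The mouse has more than 1 copy of the osteocalcin gene, next to each other on chromosome 3, and the copies are shown first because the counts of Bglap and Bglap2 depend on how well their sequences differ. The coding sequences below, from the GENCODE transcripts of GRCm38, run 5′ to 3′ on the minus strand of the chromosome. Capitals mark the bases at which the 2 copies differ.
Bglap: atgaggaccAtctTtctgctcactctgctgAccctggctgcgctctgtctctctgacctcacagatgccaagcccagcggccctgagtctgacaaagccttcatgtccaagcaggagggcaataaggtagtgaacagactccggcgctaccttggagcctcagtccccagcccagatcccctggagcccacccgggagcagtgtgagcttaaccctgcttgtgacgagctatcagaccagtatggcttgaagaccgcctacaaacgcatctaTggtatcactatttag
Bglap2: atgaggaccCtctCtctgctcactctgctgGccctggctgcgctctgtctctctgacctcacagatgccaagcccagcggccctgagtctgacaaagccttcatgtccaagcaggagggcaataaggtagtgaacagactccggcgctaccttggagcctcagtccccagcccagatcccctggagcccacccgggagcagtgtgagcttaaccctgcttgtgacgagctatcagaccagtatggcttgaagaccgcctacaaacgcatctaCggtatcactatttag
Of 288 coding bases, 4 differ, an identity of 98.61%, and 192 of the 341 windows of 100 bases in the Bglap transcript (56.3%) also occur in that of Bglap2. Reads from those stretches cannot be assigned to 1 copy, and how the authors' counting treated them is not given, so the split between Bglap and Bglap2 is uncertain. The third copy, Bglap3, differs from Bglap at 13 coding bases and shares 0 such windows with it, but 20 of the 372 windows of Bglap2 (5.38%) occur in it, and it had 11 to 28 counts per library.

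Of the 9 genes, 6 had entries in the RefSeq promoter table of GRCm38.p6, each covering 300 bases that end just past a gene start. Dmp1 has 2 starts in that table, and Bglap2, Dlx5 and Ptprv are not in it. Promoters of Bglap, Mepe and Dmp1 (its second start) are shown because these genes hold the core letters ACCACA of sites for RUNX factors, the family of the osteoblast regulator RUNX2, and that of Ifitm5 because its levels went apart from the others. Capitals mark ACCACA or, on the other strand, TGTGGT.
Bglap, chr3:88384417-88384716, minus strand: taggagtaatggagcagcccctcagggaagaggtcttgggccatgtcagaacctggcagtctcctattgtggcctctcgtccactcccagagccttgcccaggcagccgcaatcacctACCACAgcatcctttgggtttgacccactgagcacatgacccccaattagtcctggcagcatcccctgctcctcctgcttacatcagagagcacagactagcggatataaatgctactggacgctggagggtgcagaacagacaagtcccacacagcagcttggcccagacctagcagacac
Mepe, chr5:104325079-104325378, plus strand: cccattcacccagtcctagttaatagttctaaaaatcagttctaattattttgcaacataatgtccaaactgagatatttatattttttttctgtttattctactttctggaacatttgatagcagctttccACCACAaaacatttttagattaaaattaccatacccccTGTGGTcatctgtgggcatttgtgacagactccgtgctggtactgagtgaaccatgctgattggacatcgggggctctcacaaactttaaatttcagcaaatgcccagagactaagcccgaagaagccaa
Dmp1, chr5:104202367-104202666, plus strand: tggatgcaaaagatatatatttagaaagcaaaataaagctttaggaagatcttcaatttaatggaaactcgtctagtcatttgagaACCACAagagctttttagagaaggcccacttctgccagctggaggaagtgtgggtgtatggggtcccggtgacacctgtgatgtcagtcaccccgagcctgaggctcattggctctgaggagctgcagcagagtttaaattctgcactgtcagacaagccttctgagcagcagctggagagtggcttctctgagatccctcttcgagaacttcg
Ifitm5, chr7:140950194-140950493, minus strand: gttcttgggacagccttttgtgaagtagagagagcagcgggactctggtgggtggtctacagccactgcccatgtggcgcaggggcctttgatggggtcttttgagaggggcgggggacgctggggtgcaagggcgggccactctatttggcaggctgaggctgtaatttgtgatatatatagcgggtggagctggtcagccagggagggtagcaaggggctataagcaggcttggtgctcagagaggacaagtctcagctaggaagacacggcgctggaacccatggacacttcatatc
The letters begin 132 bases before the start of Bglap, 164 before the second start of Dmp1, and 118 and 80 before that of Mepe. They were found in 3 of the 6 genes, searching both strands, and in 16.8% of all 32851 promoters of the same length. Here and below a gene counted if any of its starts matched, while the percentages count single promoters. The first start of Dmp1 had 0 matches to ACCACA. The palindromic core of an estrogen response element (GGTCA, any 3 bases, TGACC) was in 0 of the 6 and in 0.07% of all promoters. AGGTCA, a single arm of that element, was likewise in 0 of the 6, against 16.3% of all promoters. TATAAA, also searched on both strands, was in Bglap and Mepe and in 13.6% of all promoters. In Mepe the match lay on the other strand, as TTTATA in the letters shown. These matches describe letters in a window and do not show that a factor binds there.

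Ptprv was the gene of this set with the clearest response, and it fell with estradiol in both genotypes. Ptprv is the osteotesticular protein tyrosine phosphatase gene, first known for its expression in osteoblasts and testis. The GENCODE annotation of GRCm38 used here places it on chromosome 1 and lists no coding transcript for it. In KO libraries it stood at 88.3, 84.2 and 101 CPM with estradiol, against 123, 126 and 134 CPM with placebo. In WT libraries it stood at 68.5, 71.0 and 66.6 CPM with estradiol, against 119 and 118 CPM with placebo. Within each genotype no estradiol library reached any placebo library, and the WT estradiol libraries were the lowest of all. The log2 change was -0.48 in KO (SE 0.079, adjusted p = 0.00872) and -0.79 in WT (SE 0.087, adjusted p = 0.000543), by the quasi-likelihood test of edgeR with p adjusted by Benjamini-Hochberg over all 14531 genes, as for each adjusted p below unless another tool or the authors' table is named. These are folds of 0.715 and 0.580. Without WT placebo 2 the WT value was -0.80 (adjusted p = 0.00416). The difference between these effects, WT minus KO, was -0.30 (SE 0.12, adjusted p = 0.305) and did not pass, so the 2 genotypes were not shown to differ in it. The span of an antisense gene, Gm10535, overlaps an exon of Ptprv, and whether the counting used strand is not given.

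**Figure D1:**
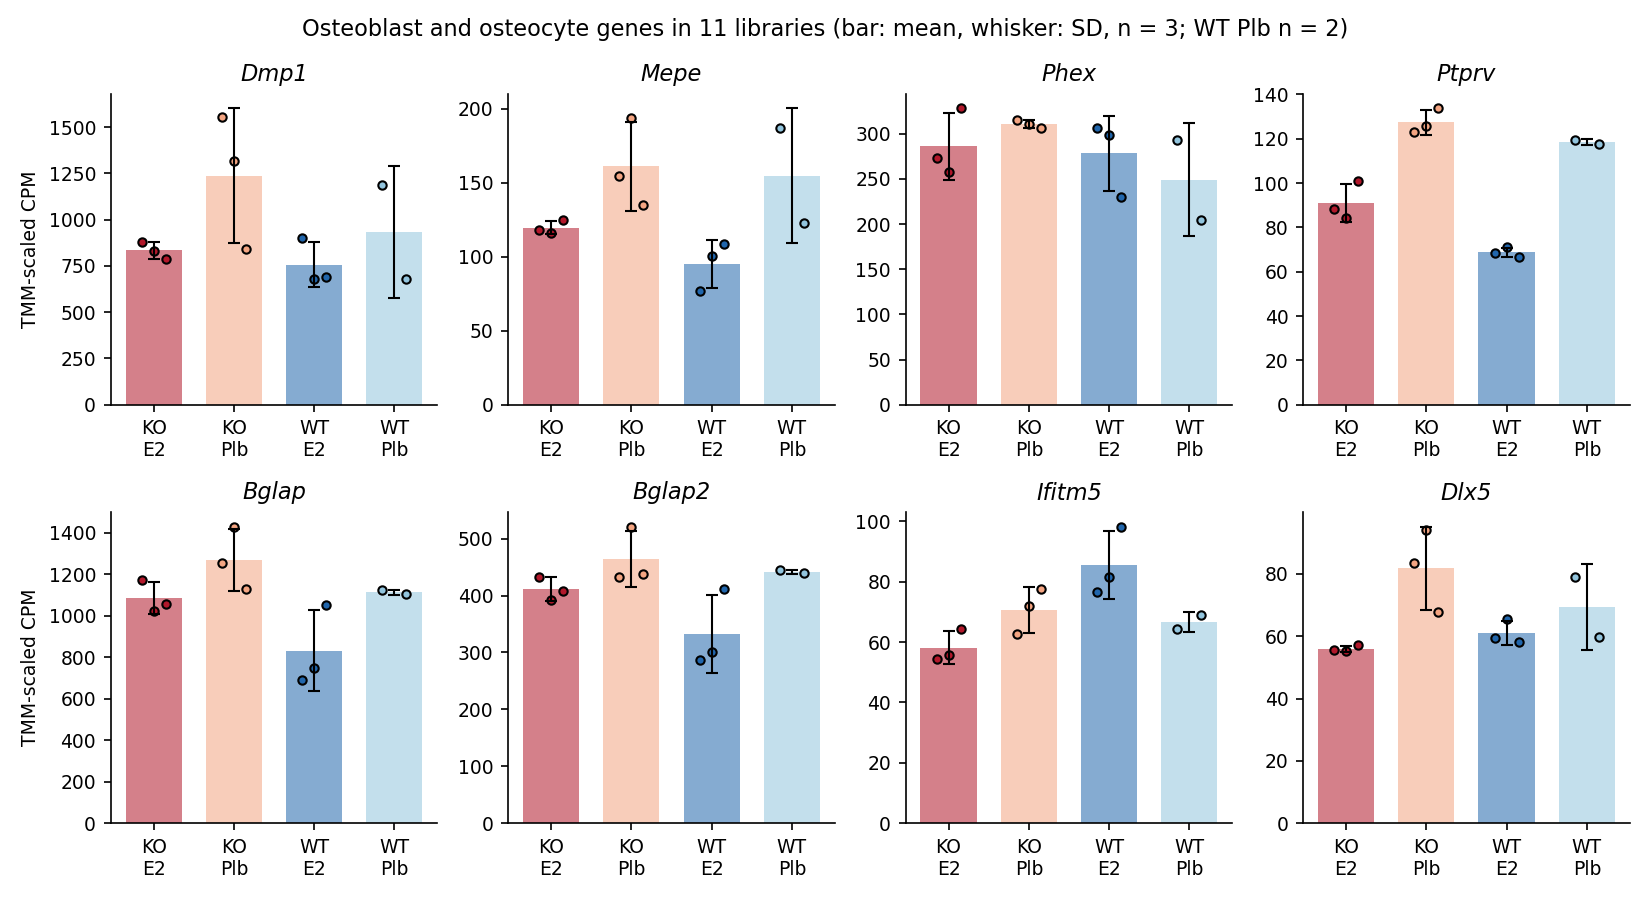
TMM-scaled CPM (vertical axes, each from 0) of the 8 tested genes in KO estradiol, KO placebo, WT estradiol and WT placebo libraries. Points are libraries, bars are group means and whiskers are 1 SD. Ptprv lies at 66.6 to 71.0 CPM in WT estradiol and 118 to 119 in WT placebo, and Ifitm5 reaches its highest levels, 76.7 to 98.2 CPM, in WT estradiol.

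Estradiol in WT tissue was asked next for the set as a whole. Of the 8 tested genes, 1 fell (Ptprv) and 0 rose, against 1.55% of all genes called in this comparison, of which 0.895% of all genes were lower and 0.654% higher. The median log2 change of the 8 was -0.36, and that of all tested genes 0.00232. Libraries did not overlap for 1 gene that was higher and 4 that were lower with estradiol, as for 13.2% and 13.8% of all genes. In the authors' deposited table of this comparison, where 3.34% of genes had an adjusted p under 0.05, 2 of the set did, Mepe (log2 -0.69, adjusted p = 0.0315) and Ptprv (log2 -0.78, adjusted p = 4.1e-10).

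In KO tissue, 2 of the 8 fell with estradiol (Ptprv and Dlx5) and 0 rose, against 2.73% of all genes called, or 0.365% lower and 2.36% higher. The median log2 change was again -0.36, with -0.00255 over all genes, and all 8 values were negative. For 3 genes the libraries did not overlap, all lower with estradiol, as for 12.4% of all genes lower and 12.4% higher. With the replicate number as a block, the same 2 of 8 were called and all genes called came to 629, or 4.33%. The check of pairing allowed the block for this comparison only, but it was fitted over all 11 libraries. The fit thus also pairs the WT libraries, which were not shown to pair. The authors' deposited table had 4 of the set at an adjusted p under 0.05, against 7.52% of its genes: Dmp1 (adjusted p = 0.0209), Mepe (0.0177), Dlx5 (0.000803) and Ptprv (2.75e-05), all lower with estradiol.

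**Figure D2:**
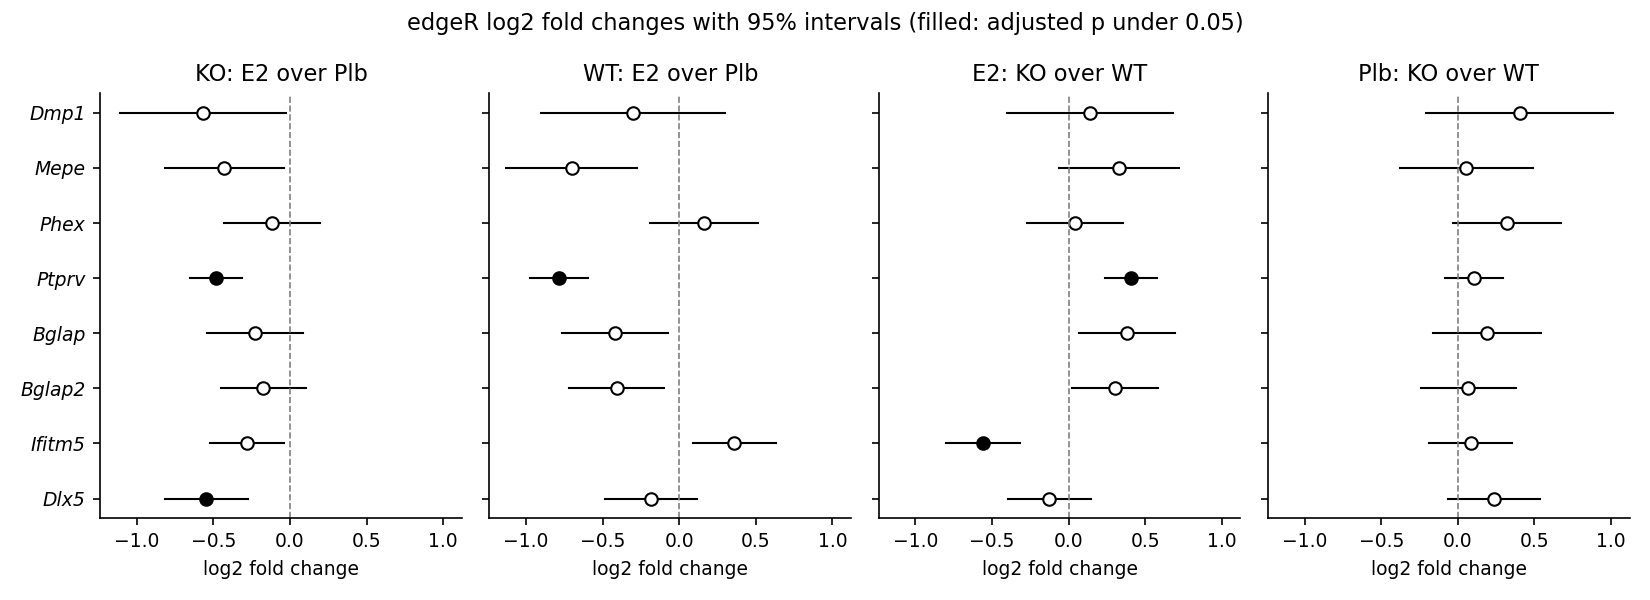
Log2 fold changes from edgeR (horizontal axes) of the 8 tested genes in 4 comparisons, estradiol over placebo in KO and in WT and KO over WT with estradiol and with placebo, with 95% intervals. Filled points passed an adjusted p of 0.05: Ptprv and Dlx5 in KO, Ptprv in WT, and Ptprv and Ifitm5 for KO over WT with estradiol.

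Dlx5, a homeobox transcription factor that acts in osteoblast differentiation, was the other gene that fell in KO tissue. Its levels in KO were 55.5, 55.4 and 57.2 CPM with estradiol, against 83.5, 94.2 and 67.7 CPM with placebo. In WT they were 59.5, 65.4 and 58.3 CPM with estradiol, against 79.1 and 59.7 CPM with placebo. The KO groups did not overlap, while the WT groups did. The log2 change was -0.55 in KO (SE 0.12, adjusted p = 0.0399) and -0.19 in WT (SE 0.14, adjusted p = 0.627), and the difference of the 2, 0.36 (SE 0.19, adjusted p = 0.523), did not pass. The WT value was -0.37 without WT placebo 2 and 0.03 without WT placebo 1. The KO call was near the threshold: it was lost when any 1 of the WT estradiol or KO estradiol libraries, or KO placebo 1 or 2, was left out, with adjusted p up to 0.146. Its neighbour on chromosome 6, Dlx6, a homeobox gene of the same family, had log2 changes of -0.41 in KO (SE 0.14, adjusted p = 0.155) and -0.28 in WT (SE 0.16, adjusted p = 0.483), and passed in neither.

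Ifitm5, a membrane protein gene of mineralizing osteoblasts, in which a human mutation causes a form of brittle bone disease, went the other way from most of the set in WT tissue. Its WT levels were 76.7, 81.5 and 98.2 CPM with estradiol, against 64.3 and 68.9 CPM with placebo. In KO tissue they were 54.4, 55.7 and 64.3 CPM with estradiol, against 62.5, 72.0 and 77.5 CPM with placebo. WT estradiol libraries were all above WT placebo and above KO estradiol, whereas the KO groups overlapped. The WT change of 0.36 (SE 0.13, adjusted p = 0.193) and the KO change of -0.28 (SE 0.11, adjusted p = 0.221) did not pass. Their difference was 0.64 (SE 0.17, 95% interval 0.28 to 1.00) and did not pass either (adjusted p = 0.0921), but it did with DESeq2 (adjusted p = 0.0205). Without WT placebo 2 the WT change was 0.41 (adjusted p = 0.255) and the difference 0.69 (adjusted p = 0.199). KO over WT with estradiol did pass, at -0.56 (SE 0.11, adjusted p = 0.00803).

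A ratio of counts within a library does not depend on how libraries are scaled. There were 0.0465 to 0.0609 counts of Ifitm5 per count of Bglap in KO estradiol, 0.0499 to 0.0685 in KO placebo, 0.0933 to 0.111 in WT estradiol and 0.0573 to 0.0624 in WT placebo. The WT estradiol libraries lay above all 8 others in this ratio. With estradiol in WT, Ifitm5 was higher (log2 0.36) and Bglap lower (log2 -0.42), each without overlap. The ratio therefore combines these 2 differences and is not separate evidence. The span of another protein-coding gene, Gm45717, overlaps an exon of Ifitm5, so some counts of Ifitm5 may belong there. Whether exons of Gm45717 lie in that overlap was not checked.

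Osteocalcin, the most abundant protein of bone matrix after collagen, is encoded by Bglap and Bglap2. Bglap had 1170, 1024 and 1057 CPM in KO estradiol, against 1252, 1428 and 1131 CPM in KO placebo. Its WT levels were 690, 750 and 1053 CPM with estradiol, against 1122 and 1104 CPM with placebo. The KO groups overlapped, the WT groups did not, and WT estradiol 3 stood close to placebo. Bglap2 had 433, 391 and 408 CPM in KO estradiol, against 433, 521 and 438 CPM in KO placebo. WT libraries held 286, 300 and 412 CPM with estradiol, against 444 and 440 CPM with placebo. The order of libraries was thus close to that of Bglap, and the 2 genes had a Pearson r of 0.98 over the 11 libraries, which share the reads described above. The WT changes were -0.42 for Bglap (SE 0.16, adjusted p = 0.242) and -0.41 for Bglap2 (SE 0.14, adjusted p = 0.191), and the KO changes -0.23 (SE 0.14, adjusted p = 0.467) and -0.17 (SE 0.13, adjusted p = 0.555). None of these passed. Without WT placebo 2 the WT changes were -0.43 for Bglap (adjusted p = 0.365) and -0.42 for Bglap2 (adjusted p = 0.318). Without WT estradiol 3 both passed in WT, Bglap at -0.63 (adjusted p = 0.0252) and Bglap2 at -0.59 (adjusted p = 0.0184). Bglap2 took 27.0% to 27.9% of the summed counts of the pair in KO estradiol, 25.7% to 27.9% in KO placebo, 28.1% to 29.3% in WT estradiol and 28.4% to 28.5% in WT placebo.

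Dmp1, Mepe, Phex and Fgf23 are the osteocyte genes of phosphate and mineral handling. DMP1 and MEPE are phosphoproteins of the matrix whose genes lie on chromosome 5 in a row with Dspp, Ibsp and Spp1. Dmp1 had 881, 830 and 790 CPM in KO estradiol, against 1555, 1316 and 838 CPM in KO placebo. WT levels were 899, 680 and 692 CPM with estradiol, against 1187 and 682 CPM with placebo. Placebo groups spread widely in both genotypes, and 1 placebo library of each was as low as the estradiol ones. The change was -0.57 in KO (SE 0.24, adjusted p = 0.277) and -0.30 in WT (SE 0.27, adjusted p = 0.703). The WT value was -0.65 without WT placebo 2 (adjusted p = 0.312) and 0.15 without WT placebo 1 (adjusted p = 0.883), so its direction rested on 1 library.

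Mepe, whose protein slows mineralization, had 118, 116 and 125 CPM in KO estradiol, against 154, 194 and 135 CPM in KO placebo. In WT it had 76.9, 100 and 108 CPM with estradiol, against 187 and 123 CPM with placebo. Estradiol libraries were below placebo libraries in both genotypes, without overlap. The change was -0.43 in KO (SE 0.18, adjusted p = 0.248) and -0.70 in WT (SE 0.20, adjusted p = 0.118), and neither passed. The WT change passed with DESeq2 (-0.71, adjusted p = 0.0116) and without WT placebo 2 (-0.97, adjusted p = 0.0367), but not without WT placebo 1 (-0.37, adjusted p = 0.475).

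Phex, a membrane peptidase on the X chromosome whose loss causes phosphate wasting, varied least between libraries of the set, with a highest level 1.60 times its lowest. It had 273, 258 and 328 CPM in KO estradiol, against 316, 311 and 307 CPM in KO placebo. Its levels in WT were 306, 298 and 231 CPM with estradiol, against 293 and 205 CPM with placebo. The groups overlapped in both genotypes, and the changes were -0.12 in KO (95% interval -0.43 to 0.19) and 0.16 in WT (95% interval -0.19 to 0.51). The WT value was -0.08 without WT placebo 2 (adjusted p = 0.884) and 0.44 without WT placebo 1 (adjusted p = 0.266), so its direction rested on 1 library. Fgf23, the phosphate hormone of osteocytes, was at the edge of detection. It had 1, 0 and 1 counts in KO estradiol, 3, 2 and 0 in KO placebo, 5, 1 and 2 in WT estradiol and 7 and 0 in WT placebo. Its 22 counts over 11 libraries allow no comparison between groups.

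The knockout was compared with wild type under each pellet. With placebo, 0 of the 8 genes were called by edgeR, against 0.00688% of all genes, and 0 had an unadjusted p under 0.05, against 9.21% of all genes. DESeq2 also called 0 of them, and so did the authors' deposited table, against 0.241% of its genes. The 8 log2 differences were all positive, from 0.06 for Mepe to 0.40 for Dmp1, with a median of 0.15, and that of all genes was -0.00331. With other settings or with 1 library left out the values of Mepe ran from -0.21 to 0.39 and those of Dmp1 from -0.14 to 0.86, so not all of these directions held. Libraries of 3 of the 8 did not overlap, all higher in KO (Phex, Bglap and Ptprv), as for 13.2% of all genes higher and 13.8% lower. With estradiol, 2 of the 8 were called, 1 higher in KO and 1 lower, against 11.5% of all genes called in either direction. Libraries did not overlap for 2 genes that were higher in KO and 2 that were lower, as for 17.7% and 16.9% of all genes. Ptprv was higher in KO by 0.41 (SE 0.079, adjusted p = 0.00682), and Ifitm5 was lower, as given above. The authors' deposited table called the same 2 genes (adjusted p = 0.00183 for Ptprv and 0.000328 for Ifitm5), against 13.0% of its genes. Bglap was higher in KO by 0.38 (SE 0.14, adjusted p = 0.111) and Bglap2 by 0.30 (SE 0.13, adjusted p = 0.152), which did not pass. DESeq2 called Bglap (0.39, adjusted p = 0.0497) beside Ptprv and Ifitm5. Without WT estradiol 3 both passed in edgeR, at 0.59 (adjusted p = 0.00964) and 0.49 (adjusted p = 0.0128). The comparisons share libraries with those of estradiol within a genotype. In the comparison with estradiol the other cell markers also differed, with 8 of 12 neutrophil and 10 of 10 B cell markers higher in KO and 6 of 10 osteoclast markers lower. Also lower in KO were 3 of 5 hypertrophic chondrocyte and 3 of 6 endothelial markers, while 0 of 7 chondrocyte markers were called. The part of these cells in the result was not tested.

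The difference of the estradiol effects, WT minus KO, was called for 0 of the 8 genes, against 1.15% of all genes. Of the 8, 2 had an unadjusted p under 0.05 (Ifitm5 and Ptprv), against 11.6% of all genes. DESeq2 called 1, Ifitm5. The 8 differences ran from -0.30 for Ptprv to 0.64 for Ifitm5, with a median of 0.04.

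Across all 11 libraries the genes fell in line to different degrees. Among the 21 pairs that leave out Ifitm5, 19 correlated positively, with a median Pearson r of 0.55, and Mepe with Bglap had r = 0.85 and Dmp1 with Dlx5 r = 0.81. The 7 pairs with Ifitm5 ran from -0.36 to 0.05. The mean z-score of the 8 genes was -0.54 to -0.06 in KO estradiol, 0.42 to 1.21 in KO placebo, -0.82 to -0.36 in WT estradiol and -0.31 to 0.61 in WT placebo. The 8 genes outside the set whose levels were most like that score over the 11 libraries were Gpr153, Fzd1, Gpr124, Adamts10, Egr2, Per3, Ctdspl and Ldb1, with r from 0.95 to 0.97. Fzd1 encodes a receptor of Wnt proteins. Singly, Sspn was most like Dmp1 (r = 0.96), Tjp1 most like Phex (r = 0.97) and AI854703 most like Dlx5 (r = 0.95). These values describe libraries that share groups and are given without a test.

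Other genes of bone were read from a list of 40, of which 39 were found under these symbols and 36 were tested. In WT tissue 2 rose and 1 fell with estradiol, against the same 1.55% of all genes, with a median log2 change of -0.00191 over the list. In KO tissue edgeR called 0 of the 36, against 2.73% of all genes, and DESeq2 called 1, against 6.55%. Of the 36, 6 had an unadjusted p under 0.05 (16.5% of all genes did). Of their values, 28 were negative (median -0.15, with -0.00255 over all genes). The authors' deposited table called 4 listed genes in KO, all lower with estradiol, against 7.52% of its genes: Runx2, and Omd, Fam20c and Fgfr1, which are named because their values were seen. In WT it also called 4, Ibsp, Phospho1 and Sost higher and Slc20a2 lower, against 3.34% of its genes. For Phospho1 its adjusted p was 0.0285, while edgeR gave 0.48 (adjusted p = 0.228). For KO over WT with estradiol it called 9, 1 higher and 8 lower, against 13.0% of its genes. Sost, an osteocyte inhibitor of Wnt signalling, had 44.6, 39.9 and 38.1 CPM in KO estradiol, against 45.4, 54.3 and 47.8 CPM in KO placebo. WT tissue had 81.3, 108 and 115 CPM with estradiol, against 37.9 and 43.5 CPM with placebo. WT estradiol thus stood above all other libraries, with a change of 1.32 in WT (adjusted p = 0.000543), -0.27 in KO (adjusted p = 0.32) and a difference of 1.58 (SE 0.19, adjusted p = 0.00177). Without WT placebo 2 the WT change was 1.42 (adjusted p = 0.00519).

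Ibsp, a matrix sialoprotein gene that lies between Dmp1 and Mepe on chromosome 5, had 2638, 2493 and 3111 CPM in KO estradiol, against 2475, 2344 and 3034 CPM in KO placebo. Levels in WT were 6134, 5998 and 5842 CPM with estradiol, against 4060 and 3429 CPM with placebo. It rose in WT by 0.68 (SE 0.14, adjusted p = 0.0298), a call that was lost when any 1 WT library or KO placebo 1 was left out (0.56, adjusted p = 0.137 without WT placebo 2), and its value was 0.07 in KO (adjusted p = 0.837). For Ibsp the difference of the estradiol effects, WT minus KO, was 0.61 (SE 0.18, adjusted p = 0.145) and did not pass. Spp1, the gene of osteopontin, lies next to Mepe in that row. It had changes of -0.29 in KO (adjusted p = 0.336) and -0.41 in WT (adjusted p = 0.249), or -0.63 without WT placebo 2 and -0.15 without WT placebo 1. Dspp, at the end of the row beside Dmp1 and best known from teeth, had 0 to 4 counts per library.

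**Figure D3:**
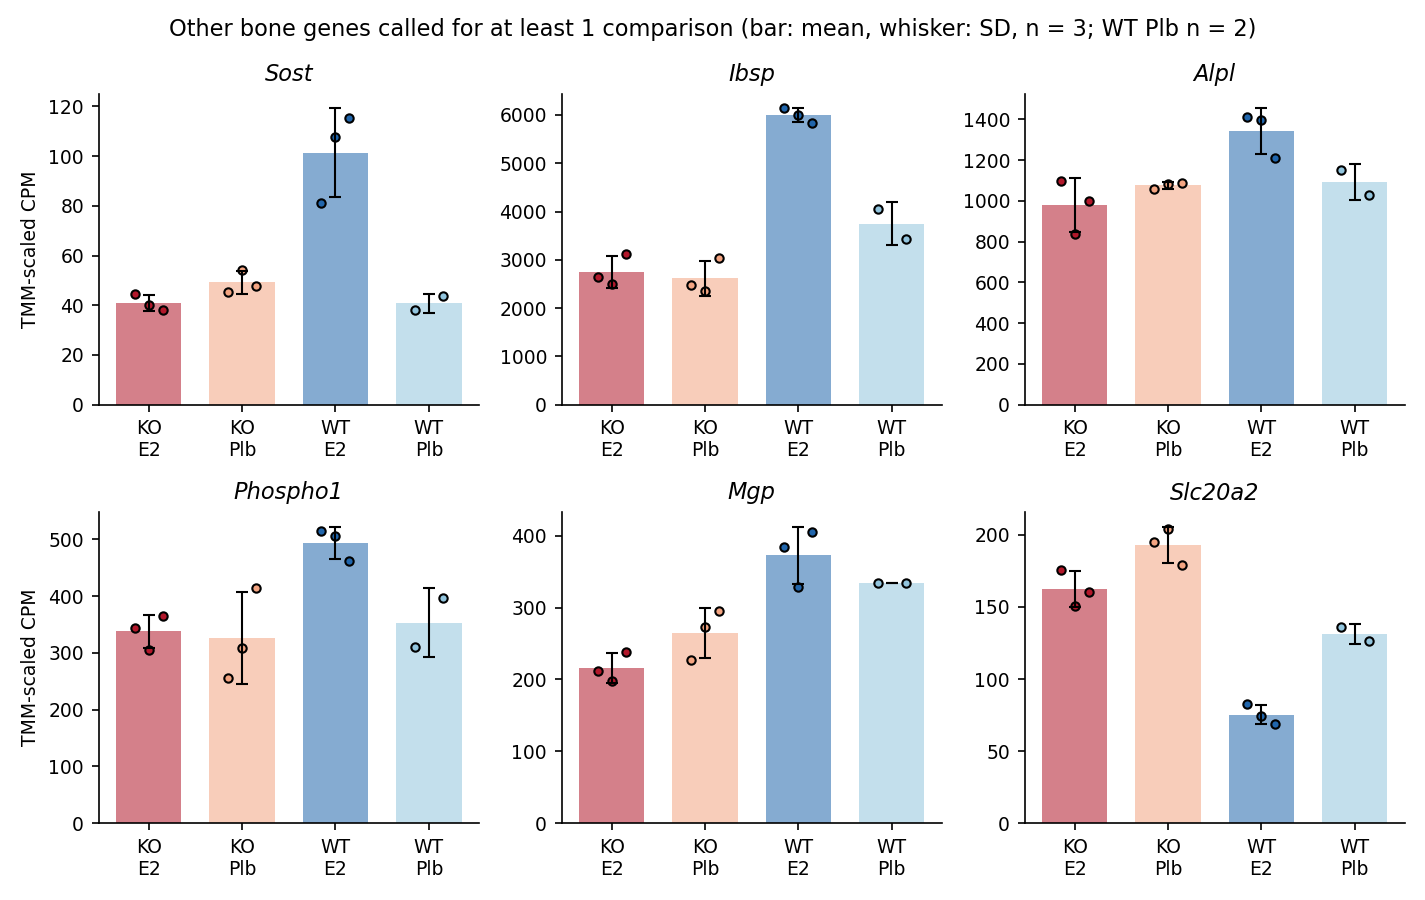
TMM-scaled CPM (vertical axes, each from 0) of the 6 listed bone genes outside the set that passed in at least 1 comparison, in KO estradiol, KO placebo, WT estradiol and WT placebo libraries. Points are libraries, bars are means and whiskers are 1 SD. Sost lies at 81.3 to 115 CPM in WT estradiol, above the 37.9 to 54.3 CPM of the other 8 libraries.

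Genes of mineral deposition moved both ways. Slc20a2, a phosphate transporter, had 176, 151 and 160 CPM in KO estradiol, against 195, 204 and 179 CPM in KO placebo. In WT it had 82.4, 74.5 and 69.0 CPM with estradiol, against 136 and 126 CPM with placebo. It fell in WT by 0.80 on the log2 scale (adjusted p = 0.00139), or by 0.85 without WT placebo 2 (adjusted p = 0.00621), and the KO value was -0.25 (adjusted p = 0.174). For Slc20a2 the difference of the estradiol effects, WT minus KO, was -0.55 (SE 0.13, adjusted p = 0.0722) and did not pass. With estradiol, KO over WT was called for 6 of the 36 listed genes, 1 higher and 5 lower, again against 11.5% of all genes. Slc20a2 was higher in KO by 1.11 (adjusted p = 2.11e-05). Sost (-1.31, adjusted p = 7.83e-05), Ibsp (-1.12, adjusted p = 0.000174) and Mgp, an inhibitor of calcification (-0.79, adjusted p = 0.00111), were lower. So were Alpl, the alkaline phosphatase of mineralizing cells (-0.46, adjusted p = 0.0175), and Phospho1, a phosphatase of matrix vesicles (-0.55, adjusted p = 0.044). The call of Alpl was lost without WT estradiol 1 or 2 or KO estradiol 2 (adjusted p up to 0.0723), and that of Phospho1 without any 1 of the 6 estradiol libraries or KO placebo 2 (adjusted p up to 0.153). With placebo 0 of the 36 were called by edgeR, against 0.00688% of all genes. Of the 36, 3 had an unadjusted p under 0.05, against 9.21% of all genes. DESeq2 called 2 (Ibsp and Slc20a2), against 0.281% of all genes. The authors' deposited table called 1, Slc20a2 (log2 0.55, adjusted p = 0.000139), against 0.241% of its genes.

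None of the 8 listed regulators of the lineage passed in edgeR in any of the 5 comparisons. In the authors' deposited table Runx2, the master regulator of the osteoblast lineage, was lower with estradiol in KO (log2 -0.34, adjusted p = 0.0348). Runx2 averaged 210 ± 7.06 CPM in KO estradiol, 266 ± 38.8 in KO placebo, 190 ± 45.6 in WT estradiol (SD, n = 3 each) and 221 ± 74.5 in WT placebo (n = 2). Sp7, also called osterix, averaged 358 ± 36.5 CPM in KO estradiol, 413 ± 14.9 in KO placebo, 401 ± 65.5 in WT estradiol (n = 3 each) and 394 ± 1.83 in WT placebo (n = 2). Col1a1, the main collagen of bone, had changes of -0.21 in KO (adjusted p = 0.507) and -0.32 in WT (adjusted p = 0.418), or -0.50 without WT placebo 2 and -0.11 without WT placebo 1.

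**Figure D4:**
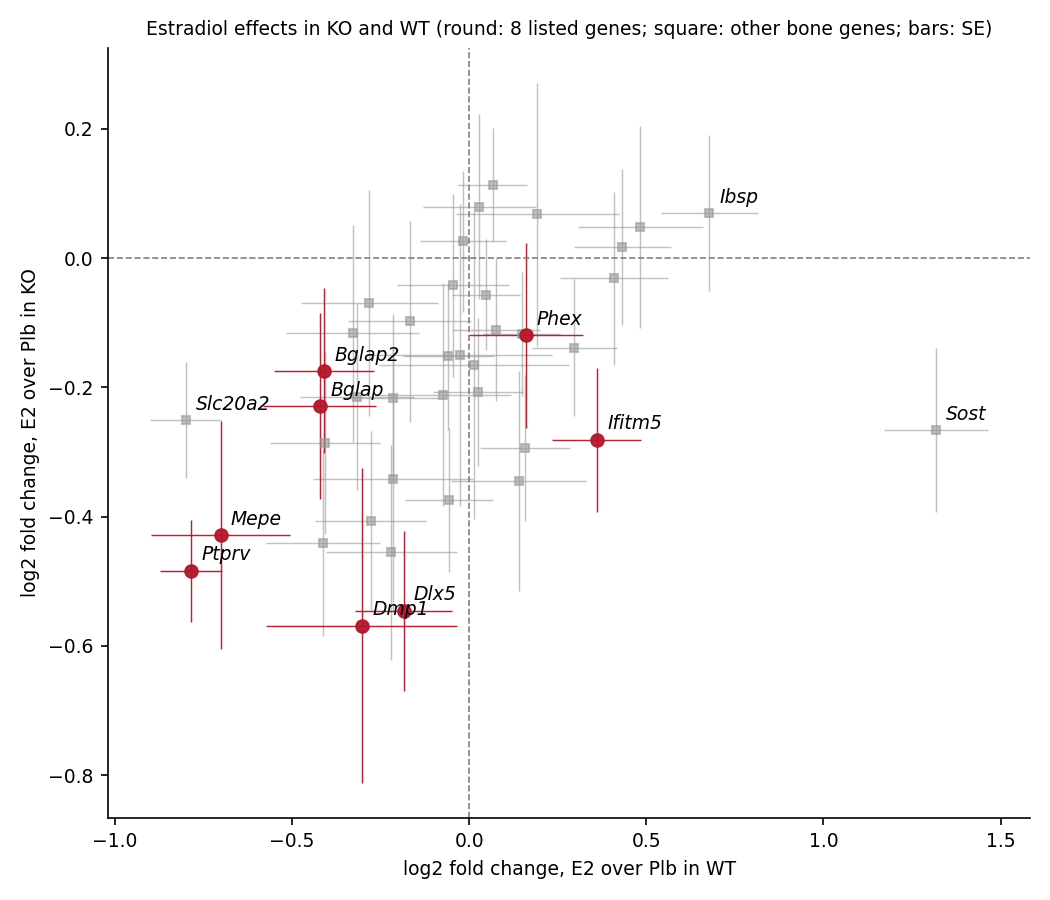
Log2 change with estradiol in KO (vertical axis) against that in WT (horizontal axis) for the 8 tested genes (round) and 33 other listed bone genes (square), with bars of 1 SE. Left out are 3 listed genes with a mean under 1 CPM. Ptprv and Mepe lie low in both genotypes, Sost lies alone at 1.32 in WT and -0.27 in KO, and Ifitm5 is positive in WT and negative in KO.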

How the data were processed

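Per the labels' protocols, poly-A RNA from all cells of the tissue was made into Illumina libraries and sequenced, and reads were handled with TopHat on build mm9 after bcl2fastq 2.17, per the submitters' processing notes. No source used here gives the program that assigned reads to genes, its annotation or its use of strand. The authors deposited raw counts per gene symbol, 1 column per library, and 0 columns were left unused. The authors' deposited tables of pairwise comparisons hold, per the file headers, log2 fold changes and adjusted p-values, which are quoted only where the table is named.

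In R 4.3.3, edgeR 4.0.16 kept genes by filterByExpr (minimum count 10, minimum total 15), which left 14531 genes with 99.98% of counts, and 5218 symbols had no count at all. A quasi-likelihood model of the 4 groups over all 11 libraries was fitted after TMM scaling, with 7 residual degrees of freedom and a common coefficient of biological variation of 15.75%. Calls are Benjamini-Hochberg adjusted p-values under 0.05 over all tested genes, and SE is the absolute log2 change over the root of F. No pair of libraries of a group agreed within sampling noise. The steps were tested on simulated data of 14337 genes for estradiol in WT, with 10 false calls. They recovered 27 of 67 changes of 1.5 fold (40.3%), 57 of 67 of 2 fold (85.1%) and 65 of 66 of 4 fold (98.5%). Changes near 1.5 fold can therefore go uncalled. The 9 genes and the lists were chosen with earlier results of these data known. Named bone genes were those called in at least 1 comparison and 10 that were always to be named, and likeness used log2 CPM with a prior count of 2.

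Same-numbered KO estradiol and KO placebo libraries deviated together (r = 0.14 to 0.39 over the 3 pairs), so the replicate number was taken to pair these groups. The pairing comes from the data, as the labels do not state what a number marks. Alternatives were RLE size factors, no count filter, DESeq2 1.42.0, the replicate block, each library left out, WT placebo 2 and KO placebo 1 left out together, and the osteocalcin copies summed.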

Additional observations from a re-analysis of the deposited data

Results flagged for a closer look

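Sost is the 1 result that met a criterion for a closer look: its response to estradiol differed between the genotypes by a test of the difference itself. The WT change minus the KO change was 1.58 on the log2 scale (edgeR adjusted p = 0.00177), and it passed in all 17 alternatives, with adjusted p up to 0.0146.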

How the results depend on the processing

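Over 17 alternatives no called gene changed direction. Ptprv was called in all 17 for estradiol in KO (adjusted p up to 0.0496), estradiol in WT (up to 0.00924) and KO over WT with estradiol (up to 0.0314), and Ifitm5 in all 17 for the last (up to 0.0382). Dlx5 was called in 8 of 17 for estradiol in KO. With DESeq2, 2 of the 8 genes were called for estradiol in WT against 1, 3 against 2 for KO over WT with estradiol (Bglap added), and 1 against 0 for the difference of effects. With it the bone list had 1 call for estradiol in KO against 0, 2 for KO over WT with placebo against 0, and 3 for the difference against 1. The replicate block gave 1 of the 8 for the difference (Ifitm5, adjusted p = 0.0241), although same-numbered WT libraries correlated at -0.20 and -0.16 and so were not shown to pair, and 1 bone gene for KO over WT with placebo (Slc20a2). Leaving out 1 library at a time gave 1 to 3 of the 8 genes for estradiol in WT, 1 to 2 for estradiol in KO and 2 to 4 for KO over WT with estradiol, and 0 each time for KO over WT with placebo and for the difference. The bone list then had 2 to 3 calls for estradiol in WT, 0 to 1 in KO (Fgfr1), 4 to 7 for KO over WT with estradiol, 0 each time with placebo and 1 each time for the difference. Without WT placebo 2 and KO placebo 1 together, estradiol in KO gave 1 of the 8. With 1 library left out of any group but WT placebo, the number of all genes called also moved. It came to 113 to 285 (0.782% to 1.97%) for estradiol in WT and 105 to 505 (0.726% to 3.48%) in KO. For KO over WT with estradiol it was 867 to 1569 (6% to 10.8%), and for the difference 68 to 270 (0.47% to 1.86%). The replicate block called 301 genes (2.07%) for the difference and 17 (0.117%) for KO over WT with placebo. The cause of these changes was not tested. All genes called by DESeq2 came to 656 against 225 for estradiol in WT, 952 against 396 in KO, 40 against 1 for KO over WT with placebo, 2225 against 1667 with estradiol and 561 against 167 for the difference. With RLE scaling the median of all genes lay within 0.00766 of 0 in each comparison. The block, fitted over all 11 libraries, is used beside estradiol in KO, and other same-numbered pairs correlated from -0.20 to 0.20. WT placebo has 2 libraries, so with 1 left out the lone library is assumed to vary like the other groups.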
